A study of Homo sapiens with 6 samples.

Results

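The ERBB receptors (EGFR, ERBB2, ERBB3 and ERBB4), genes grouped here as their negative regulators (ERRFI1, LRIG1, LRIG3, CBL and CBLB) and the adaptor SHC1 were followed in HCC827 cells exposed to erlotinib. These 10 genes were chosen by name from the 28395 genes of the table, and 9 of them passed a minimum mean of 10 in the 6 libraries, as 14215 genes did. HCC827, a line grown from a human lung adenocarcinoma, has an EGFR gene with an activating deletion, and erlotinib is a drug that occupies the ATP pocket of the EGFR kinase. Messenger RNA was captured on oligo(dT) beads before sequencing. The control group was 3 libraries of cells given the vehicle DMSO, and the treated group was 3 libraries of cells given 1 μM erlotinib. Both groups were collected after 24 h, and all 6 libraries are of this single line, so that the receptor mutation is shared by controls and treated cells. The DMSO libraries held 20858083, 24641819 and 21172884 reads on genes, and the erlotinib libraries 21944007, 20760204 and 21678395. Values are given as signal, the reads of a gene divided by the size factor of its library. Nothing in the labels says that the libraries came from separate cultures, so the p-values measure the spread between these libraries, which may be technical.

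The ERBB receptors are tyrosine kinases that pair with each other after a ligand binds. ERBB2 has no known ligand of its own and is the favoured partner of the others, while ERBB3 has little kinase activity but docks phosphoinositide 3-kinase strongly. Signalling is limited by feedback. ERRFI1 (also called MIG6) binds and blocks the active kinase domains, the membrane protein LRIG1 promotes receptor degradation, and CBL-type ubiquitin ligases mark the activated receptor for degradation in the lysosome. SHC1 carries the signal of the phosphorylated receptor to GRB2 and the RAS pathway.

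With erlotinib, EGFR and ERRFI1 fell and ERBB2, ERBB3 and CBLB rose, each with no overlap between the groups. Among the 9 members tested, 4 were higher (ERBB2, ERBB3, LRIG1 and CBLB), 4 were lower (EGFR, ERRFI1, CBL and SHC1) and 1 was neither (LRIG3) (limma with Benjamini-Hochberg adjustment, threshold 0.05). Across the other settings 3 to 5 members were higher and 3 to 4 lower, LRIG1 and SHC1 being lost in some and ERBB4 added in 1. Of all genes tested, 35.3% were higher and 35.4% were lower, so the count of members called was near the background on either side. The median log2 fold change was 0.00 over the 9 members and 0.02 over all genes tested. In 7 of the 9 tested members the groups did not overlap, 3 with erlotinib below and 4 with erlotinib above. Of all 14215 genes tested, 10462 had no overlap, 36.9% with erlotinib below and 36.7% with erlotinib above. The members were thus near the background in this count too. Scaling to the total count raised the median over all genes from 0.02 to 0.19 on the log2 scale, and such scaling moves every gene of a library alike.

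**Figure D1:**
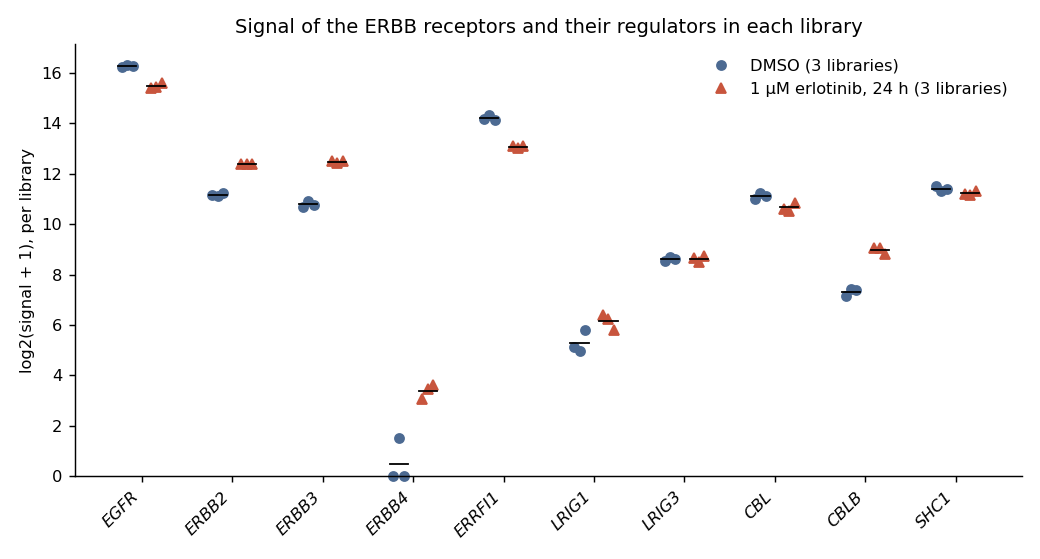
Log2(signal + 1), where signal is reads divided by the size factor, of the 10 members in the 3 DMSO (circles) and 3 erlotinib (triangles) libraries, 1 point per library with the group mean as a line. EGFR and ERRFI1 lie lower with erlotinib, ERBB2, ERBB3 and CBLB lie higher, and the points of LRIG3 and SHC1 overlap.

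The sequences just upstream of the first listed RefSeq start are shown for EGFR and ERRFI1, which fell, and for ERBB2, which rose, because these members carry the opposite changes given above. Each runs 5′ to 3′ over the 250 bases before the start in GRCh38.p14, at chr7:55018767-55019016 (plus strand), chr1:8026310-8026559 (minus strand) and chr17:39687844-39688093 (plus strand), with capitals marking the motifs searched on both strands, which were the GC box GGGCGG, the CCAAT box CCAAT, the ETS motif CCGGAAGT, the FOXO motif TGTTTAC, the AP-1 motif TGANTCA and the TATA box TATAAA.
EGFR: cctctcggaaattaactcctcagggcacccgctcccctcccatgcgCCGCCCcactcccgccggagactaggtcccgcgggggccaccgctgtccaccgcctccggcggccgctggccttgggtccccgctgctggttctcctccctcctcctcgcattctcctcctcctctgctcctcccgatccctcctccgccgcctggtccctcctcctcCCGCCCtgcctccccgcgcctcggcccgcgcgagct
ERRFI1: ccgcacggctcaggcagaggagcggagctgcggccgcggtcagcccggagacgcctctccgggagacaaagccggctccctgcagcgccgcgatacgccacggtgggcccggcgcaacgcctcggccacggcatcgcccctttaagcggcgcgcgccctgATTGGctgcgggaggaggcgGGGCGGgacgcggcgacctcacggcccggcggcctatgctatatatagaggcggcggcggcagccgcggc
ERBB2: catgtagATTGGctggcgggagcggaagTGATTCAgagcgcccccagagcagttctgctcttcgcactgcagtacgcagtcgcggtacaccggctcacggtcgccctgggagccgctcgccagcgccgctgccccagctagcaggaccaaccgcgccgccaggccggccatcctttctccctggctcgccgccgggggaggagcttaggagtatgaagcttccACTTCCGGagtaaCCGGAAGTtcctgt

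The EGFR stretch, with a GC content of 73.6%, held 2 GC boxes and none of the other motifs. The ERRFI1 stretch (75.2% GC) held 1 GC box and 1 CCAAT box. The ERBB2 stretch (65.6% GC) held no GC box, but 1 CCAAT box, 1 AP-1 motif and 2 ETS motifs in opposite orientation. By RefSeq positions the gene PGAP3, on the opposite strand, lies only 0.037 kb from this start of ERBB2, so most of the stretch falls within PGAP3. Motifs of this stretch therefore cannot be assigned to ERBB2 alone, and PGAP3 also rose (log2 fold change 2.13). RefSeq windows from 250 bases before to 50 bases after a start were on hand for 8 of the 10 members, ERBB3 and CBL not among them, with 18 windows in all. Of these 18 windows, 10 held a GC box, 9 a CCAAT box, 4 an AP-1 motif, 2 an ETS motif (ERBB2 and SHC1), 1 a TATA box and 0 a FOXO motif. Some windows of LRIG1 and of CBLB overlap, and the same GC and CCAAT boxes of LRIG1 were counted in overlapping windows. Among all 35116 windows of this length the shares were 44.95% for the GC box, 34.6% for the CCAAT box, 7.71% for AP-1, 4.14% for ETS, 11.5% for the TATA box and 3.42% for FOXO. A match describes letters in a window and does not show that a factor was bound.

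EGFR (Entrez 1956; chromosome 7, 55019017 to 55211628 in GRCh38, plus strand) was the most abundant member, and its mRNA fell under the drug that targets its protein. The signal of EGFR was 77915, 82437 and 78583 in the DMSO libraries and 42831, 43954 and 49830 in the erlotinib libraries. All erlotinib libraries lay well below the lowest DMSO library, and the third erlotinib library was the highest of its group. The erlotinib mean was 57.2% of the DMSO mean, a log2 fold change of -0.81 (SE 0.07, adjusted p = 2.4e-09, limma). EGFR took 0.345% ± 0.0155 (SD, n = 3) of all reads on genes with DMSO and 0.224% ± 0.0190 with erlotinib. It ranked 13 of the 28395 genes by mean signal with DMSO and 24 with erlotinib, without correction for gene length. Per kilobase of merged exons, EGFR ranked 90 with DMSO and 137 with erlotinib among the 13890 tested genes with a known length. In bulk RNA, fewer cells expressing a gene and less of its RNA per cell cannot be told apart.

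ERBB2 (Entrez 2064; chromosome 17, 39688094 to 39728658, plus strand), the coreceptor known as HER2, moved the other way. Its signal was 2294, 2242 and 2402 with DMSO and 5336, 5330 and 5344 with erlotinib. The erlotinib libraries were nearly equal to each other and each was above every DMSO library. The rise was 2.31-fold, with a log2 fold change of 1.21 (SE 0.06, adjusted p = 8.7e-13, limma). Exons of ERBB2 share 571 bases with MIEN1 and 144 bases with PGAP3, both on the opposite strand, and since the counted strand is not given, reads on these bases cannot be assigned to either gene. PGAP3, which remodels lipid anchors of membrane proteins, rose from a mean of 419 to 1830 (log2 fold change 2.13), against 675 to 817 for MIEN1 (0.27).

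ERBB3 (Entrez 2065; chromosome 12, 56080108 to 56103505, plus strand) rose in every treated library. The signal was 1647, 1947 and 1755 with DMSO and 5741, 5539 and 5889 with erlotinib. No DMSO library came close to the treated ones. The rise was 3.21-fold (log2 fold change 1.68, SE 0.07, adjusted p = 2.5e-14, limma).

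ERBB4 (Entrez 2066; chromosome 2, 211375717 to 212538802, minus strand), a neuregulin receptor, was close to undetected. It was counted by 0, 2 and 0 reads with DMSO and by 8, 10 and 12 reads with erlotinib, or a mean signal of 0.619 ± 1.07 and 9.51 ± 1.95 (SD, n = 3). Every erlotinib library was above every DMSO library, but the gene did not reach the minimum mean of 10. It was tested across all genes only when no minimum was set, and was then called higher (limma), which made 5 members higher. Over the groups, 2 reads stood against 30, a depth-corrected ratio of 13.7 with a 95% exact counting interval of 3.48 to 118, which covers counting error only.

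**Figure D2:**
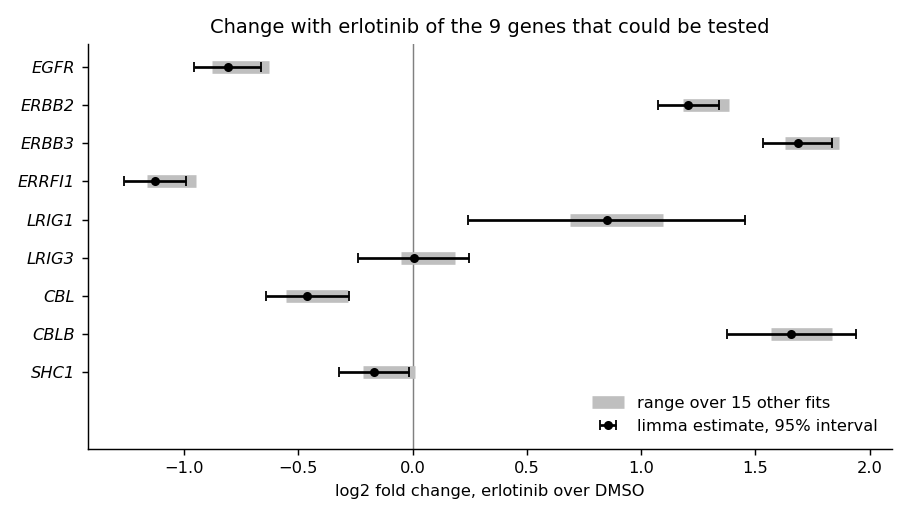
Log2 fold change of the 9 tested members, erlotinib over DMSO, as a point with its limma 95% interval and the range over 15 other fits (other scalings, tests, filters and pseudocounts, and each library left out). The intervals of ERBB2, ERBB3 and CBLB lie above 0.5 and those of EGFR and ERRFI1 below -0.5, while the interval of LRIG3 spans 0.

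Levels of different receptors were compared per kilobase of merged exons. EGFR made up 93.0% ± 0.170 of the summed level of the 4 receptors with DMSO and 73.9% ± 1.35 with erlotinib (SD, n = 3). ERBB2 made up 4.17% ± 0.241 and 13.4% ± 0.816, and ERBB3 2.83% ± 0.157 and 12.7% ± 0.574. EGFR remained the main component of the receptor pool in each library. ERBB4 contributed 0.000857% with DMSO and 0.0188% with erlotinib. The summed level was 5373 ± 161 signal per kilobase with DMSO and 3863 ± 248 with erlotinib, a ratio of 0.719. The groups did not overlap in any of these shares, and each exact two-sided permutation test gave p = 0.1, the smallest that 3 libraries against 3 allow.

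**Figure D3:**
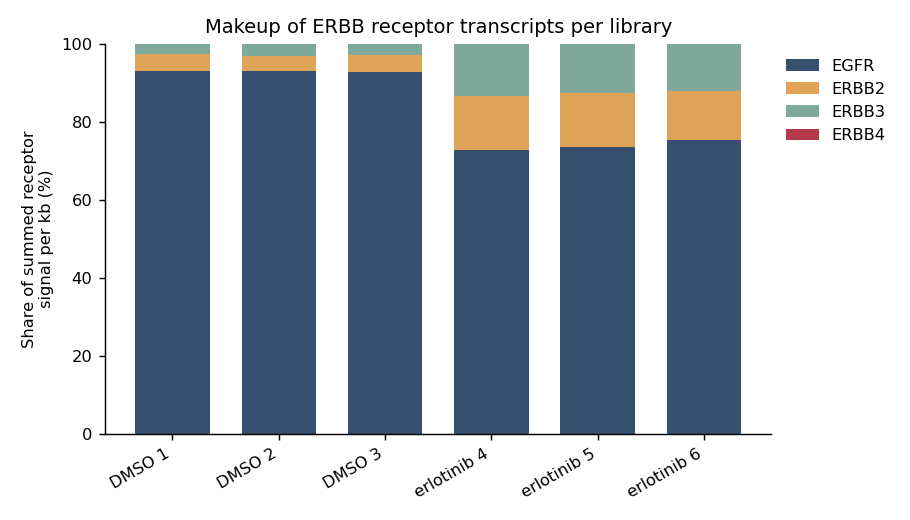
Share (percent) of each ERBB receptor in the summed signal per kilobase of merged exons, with 1 bar for each of the 3 DMSO and 3 erlotinib libraries. EGFR fills 93.0% of the bar on average with DMSO and 73.9% with erlotinib, and ERBB2 and ERBB3 take the rest; ERBB4, at 0.0188% on average with erlotinib, is too small to be seen.

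Ratios of reads within a library do not depend on how libraries are scaled, and 9 of them were computed. For every 100 reads of EGFR there were 2.91 ± 0.172 reads of ERBB2 with DMSO and 11.8 ± 0.920 with erlotinib, a log2 difference of 2.02. The corresponding counts of ERBB3 were 2.24 ± 0.124 and 12.6 ± 0.793 (log2 difference 2.49). Set against 100 reads of ERBB2, there were 77.2 ± 8.33 reads of ERBB3 with DMSO and 107 ± 3.15 with erlotinib (log2 difference 0.48). Per kilobase, ERBB2 was above ERBB3 in both groups. The inhibitor ERRFI1 had 23.7 ± 0.949 reads per 100 reads of its target EGFR with DMSO and 19.0 ± 1.25 with erlotinib (log2 difference -0.32). In 8 of the 9 ratios the groups did not overlap, each with an exact two-sided permutation p of 0.1 (0.1125 after Benjamini-Hochberg adjustment over the 9), the smallest possible p of this design. The exception was LRIG1 over LRIG3, with a log2 difference of 0.86 and an exact p of 0.2.

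**Figure D4:**
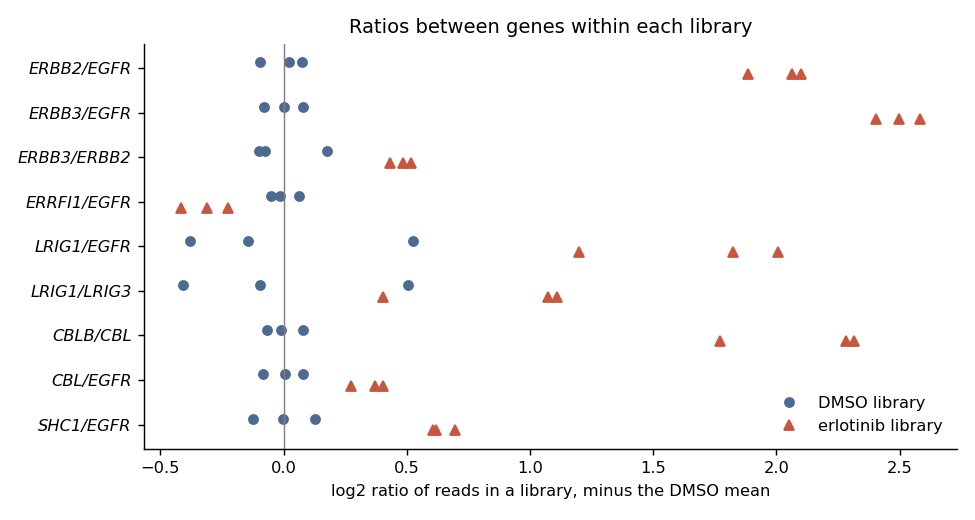
Log2 ratio of reads between pairs of members, minus the mean of the DMSO libraries, in the 3 DMSO (circles) and 3 erlotinib (triangles) libraries, 1 point per library. The largest shifts are ERBB3 over EGFR (2.49), CBLB over CBL (2.12) and ERBB2 over EGFR (2.02), and the points of LRIG1 over LRIG3 overlap.

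ERRFI1 (Entrez 54206; chromosome 1, 8011727 to 8026309, minus strand), the cytoplasmic inhibitor of active EGFR dimers and itself a gene induced by EGFR signalling, fell by 1.13 log2 units. Its signal was 18267, 20383 and 17972 with DMSO and 8670, 8392 and 8841 with erlotinib. The erlotinib libraries were close to each other and all lay far below the lowest DMSO library. The erlotinib mean was 45.7% of the DMSO mean (SE 0.06 on the log2 scale, adjusted p = 2.7e-12, limma).

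LRIG1 and LRIG3 are related membrane proteins with leucine-rich repeats, which need not act alike on the receptors. LRIG1 (Entrez 26018; chromosome 3, 66378797 to 66501121, minus strand) was low, with a signal of 34.0, 30.6 and 54.6 with DMSO and 83.1, 75.2 and 55.2 with erlotinib. The highest DMSO library and the lowest erlotinib library were almost equal. The log2 fold change was 0.85 (SE 0.29, adjusted p = 0.0133, limma), and without the first erlotinib library it was 0.73 with an adjusted p of 0.0718 (limma). LRIG1 shares 2669 of its 7043 exon bases with SLC25A26, a mitochondrial carrier gene on the opposite strand, whose signal went from 379 to 284 (log2 fold change -0.42, adjusted p = 0.0054, limma). LRIG3 (Entrez 121227; chromosome 12, 58872155 to 58920504, minus strand) had a signal of 373, 417 and 394 with DMSO and 405, 357 and 428 with erlotinib. These libraries were interleaved, and the log2 fold change was 0.00 with a 95% interval from -0.24 to 0.25 (adjusted p = 0.971, limma). The paralog LRIG2 went from 358 ± 49.2 to 440 ± 20.6 (SD, n = 3), with a log2 fold change of 0.31 (adjusted p = 0.0288, limma) that no longer passed the threshold without the first or the third DMSO library or without the middle or the third erlotinib library (adjusted p up to 0.112, limma).

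The ubiquitin ligases CBL and CBLB, which share their substrate-binding and RING domains, moved in opposite directions. CBL (Entrez 867; chromosome 11, 119206339 to 119308149, plus strand) had a signal of 2062, 2439 and 2213 with DMSO and 1554, 1488 and 1849 with erlotinib. Each erlotinib library lay below each DMSO library, and the log2 fold change was -0.46 (SE 0.09, adjusted p = 8.9e-05, limma). CBL shares 509 exon bases with the adhesion gene MCAM on the opposite strand, which had a similar log2 fold change of -0.45. CBLB (Entrez 868; chromosome 3, 105655461 to 105869449, minus strand) had a signal of 140, 172 and 166 with DMSO and 537, 526 and 447 with erlotinib. The groups were far apart, and the rise was 3.16-fold (log2 fold change 1.66, SE 0.14, adjusted p = 7.2e-10, limma). For every 100 reads of CBL there were 7.10 ± 0.368 reads of CBLB with DMSO and 31.4 ± 6.21 with erlotinib (SD, n = 3), so CBL was still the more abundant. The epithelial paralog CBLC had a signal of 268 ± 47.1 with DMSO and 310 ± 24.8 with erlotinib (log2 fold change 0.22, adjusted p = 0.176, limma), and its groups overlapped.

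SHC1 (Entrez 6464; chromosome 1, 154962298 to 154974376, minus strand) changed least among the members called. Its signal was 2895, 2573 and 2671 with DMSO and 2362, 2298 and 2580 with erlotinib. The highest erlotinib library exceeded the lowest DMSO library. The log2 fold change was -0.17 (SE 0.07, adjusted p = 0.0462, limma), and in other fits the call was lost, with an adjusted p of 0.0574 in DESeq2, 0.0686 in edgeR and 0.0662 in limma-voom on the recovered reads, 0.0663 with TMM factors in limma and 0.0568 in limma with no filter. The call was also lost without the first or the last DMSO library and without the first or the middle erlotinib library, with adjusted p-values up to 0.194 (limma). Scaled to the total count, the log2 fold change of SHC1 was 0.01. SHC1 shares 335 of its 4342 exon bases with PYGO2 on the same strand, whose signal went from 2148 to 2510 (log2 fold change 0.23, adjusted p = 0.0093, limma). Its paralog SHC3, expressed mainly in neurons, fell from 228 ± 8.22 to 108 ± 15.4 (SD, n = 3; log2 fold change -1.08, adjusted p = 6.9e-06, limma). SHC2 and SHC4 were too low to test, with means of 3.18 and 4.93 with DMSO and 12.8 and 11.7 with erlotinib.

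Per kilobase of merged exons, the order of the mean levels with DMSO was EGFR (4996), ERRFI1 (4516), SHC1 (625), ERBB2 (224), CBL (191), ERBB3 (152), LRIG3 (67.2), CBLB (12.97), LRIG1 (5.64) and ERBB4 (0.0476). With erlotinib the order was EGFR (2857), ERRFI1 (2066), SHC1 (556), ERBB2 (517), ERBB3 (489), CBL (139), LRIG3 (67.5), CBLB (41.0), LRIG1 (10.1) and ERBB4 (0.731). By this length ERBB3 and CBL exchanged places, and no neighbouring genes in either order had overlapping ranges, although EGFR and ERRFI1 were almost in contact with DMSO. Among the 13890 tested genes with a known length, ERBB2 went from rank 4455 to 1675 and ERBB3 from 5759 to 1781, while EGFR went from 90 to 137 and ERRFI1 from 101 to 231. The order depends on the exon length used. Per kilobase of the longest transcript, ERBB3 (285) was above CBL (200.4) already with DMSO, and with erlotinib ERBB2 (1082) and ERBB3 (914) were above SHC1 (693).

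The other genes of the pathway were grouped by role. Ligands of the receptors were lower or not called. Of 11 ligand genes, 7 were tested, 5 fell, 0 rose and 2 did neither. Their median log2 fold change was -1.04, against 0.02 over all genes, of which 35.3% were higher and 35.4% lower. The ligand with the highest signal was EREG (epiregulin), which fell from 17920 ± 2405 to 6876 ± 131 (SD, n = 3; log2 fold change -1.37, adjusted p = 1.6e-12, limma). AREG (amphiregulin) fell from 3456 ± 298 to 1447 ± 96.9 (log2 fold change -1.25) and TGFA from 2015 ± 137 to 847 ± 24.2 (-1.25). All 3 encode ligands that bind EGFR.

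Among 20 adaptors and docking proteins, 18 were tested, 8 rose, 5 fell and 5 did neither (median log2 fold change 0.15), beside 35.3% higher and 35.4% lower over all genes. The largest rises were in PIK3R3, a regulatory subunit of phosphoinositide 3-kinase (1149 ± 57.1 to 4099 ± 168, log2 fold change 1.83), in the docking protein GAB2 (377 ± 25.2 to 1275 ± 68.0, 1.76) and in GRB7, an adaptor that binds ERBB2 (569 ± 110 to 1655 ± 116, 1.56). The largest falls were in SHC3, in the adaptor CRKL (log2 fold change -0.70) and in GRB2, which links receptors to the RAS exchange factor SOS (5439 ± 190 to 3808 ± 68.6, -0.51). PIK3R2, with the highest mean signal over all 6 libraries though below GRB2 and CRKL with DMSO, rose by 0.38 log2 units. All 7 named here passed the threshold, with adjusted p-values of 0.00054 or less (limma).

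Of 22 genes of receptor ubiquitination and endocytosis, 20 were tested, 4 rose, 10 fell and 6 did neither (median log2 fold change -0.20), where 35.3% of all genes were higher and 35.4% lower. UBASH3B, a phosphatase that binds CBL and slows receptor loss, fell from 4024 ± 191 to 785 ± 34.4 (SD, n = 3; log2 fold change -2.36, adjusted p = 2.5e-16, limma). SH3KBP1 (CIN85), which links CBL to endophilin, fell from 1203 ± 88.6 to 428 ± 16.1 (-1.49), and the ubiquitin ligase NEDD4 fell by 1.13 log2 units. The largest rises were smaller, at 0.63 for TSG101 and 0.41 for STAM2, both parts of the endosomal sorting machinery, and 0.53 for the ligase NEDD4L. RAB7A, a late endosome GTPase with the highest signal of the list, had a log2 fold change of -0.27 (adjusted p = 0.00068, limma), and scaled to the total count it was -0.09 and no longer called.

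Of 11 phosphatases, 10 were tested, 4 rose, 3 fell and 3 did neither (median log2 fold change 0.00), close to the 35.3% higher and 35.4% lower over all genes. PTPRG (0.86), PTPN6 (0.81) and PTPRJ (0.42) rose, the last a receptor-type phosphatase known to act on EGFR. PTPN11 (SHP2), which promotes RAS signalling and so does not act as a plain inhibitor, fell from 11114 ± 702 to 7164 ± 134 (log2 fold change -0.63, adjusted p = 2.0e-08, limma), and PTPN2 (-0.42) and PTPN1 (-0.34) fell as well. Scaled to the total count, PTPN2 was at -0.24 and no longer called (adjusted p = 0.0659, limma). PTPRF, the phosphatase with the highest signal, was at 15852 ± 1159 and 15641 ± 905 (log2 fold change -0.02, adjusted p = 0.821, limma), and scaled to the total count it was 0.16 and called higher (adjusted p = 0.0343, limma).

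Of 7 other receptor-binding regulators, all were tested, 4 rose, 2 fell and 1 was neither (median log2 fold change 0.31), against 35.3% higher and 35.4% lower over all genes. MUC1, a membrane mucin that binds EGFR and is not simply an inhibitor, rose from 420 ± 50.1 to 2961 ± 103 (SD, n = 3; log2 fold change 2.82, adjusted p = 3.3e-16, limma). ZFYVE28, which promotes EGFR degradation from endosomes, rose from 34.1 ± 13.6 to 122 ± 13.7 (1.89), and TNK2, a kinase that binds activated EGFR, rose by 0.32 log2 units. CAV1, the caveolar scaffold protein and the most abundant gene of the list, fell from 46095 ± 1907 to 18596 ± 675 (-1.31), and SOCS4, which targets EGFR for degradation, by 0.55 log2 units.

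**Figure D5:**
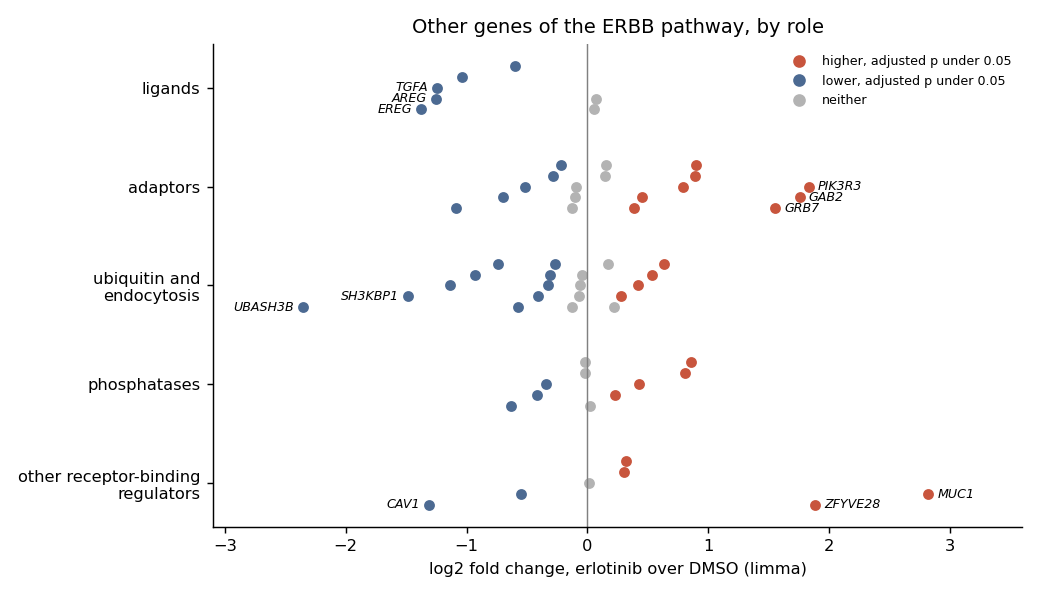
Log2 fold change, erlotinib over DMSO (limma), of the tested genes in 5 lists of the ERBB pathway, 1 point per gene, coloured by whether the adjusted p was under 0.05 and in which direction. The called ligands all lie below 0, and the other lists hold genes on both sides, from UBASH3B (-2.36) to MUC1 (2.82).

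Markers of the labelled cell type were present. All 7 lung epithelial markers were tested, and their summed signal was 289678, 257616 and 280137 with DMSO and 195057, 198485 and 200199 with erlotinib, with KRT7 the most abundant. The lineage factor NKX2-1 rose (log2 fold change 1.53), the 4 keratins KRT7, KRT8, KRT18 and KRT19 fell, and EPCAM and CDH1 were not called (-0.05 and 0.14). The groups of CDH1 did not overlap, with erlotinib above (adjusted p = 0.0531, limma), while those of EPCAM did. Markers of other cell types were low apart from CD68. The 6 fibroblast markers summed to 73.7, 75.2 and 109 with DMSO and 260, 223 and 215 with erlotinib. Most of this was COL1A1, the 1 fibroblast marker tested, which rose (log2 fold change 1.47), while COL1A2, COL3A1 and DCN were at a mean of 1.55 or less in both groups and DCN was at 0 in all DMSO libraries. LUM, below the minimum for testing, was at 2.27, 3.71 and 6.42 with DMSO and 9.23, 9.90 and 18.7 with erlotinib, without overlap. The 5 leukocyte markers summed to 2788, 2805 and 3169 with DMSO and 3229, 3535 and 3470 with erlotinib, nearly all of it the lysosomal gene CD68 (log2 fold change 0.23, adjusted p = 0.0076, limma). CD79A, a B cell marker, was at a mean of 17.8 with DMSO and 8.39 with erlotinib, without overlap (log2 fold change -1.28, adjusted p = 0.0739, limma). PTPRC and CD3E, which define leukocytes and T cells, were at a mean of 4.75 or less. The 4 endothelial markers summed to 34.0, 15.8 and 20.3 with DMSO and 58.1, 46.5 and 45.9 with erlotinib, and KDR was at 0 in all DMSO libraries. PECAM1 was the most abundant of them with DMSO (mean 15.7, and 10.4 with erlotinib) and VWF with erlotinib (mean 27.4, and 3.94 with DMSO). VWF reached the minimum mean of 10 only through the erlotinib libraries. The part of these markers in the changes of the members was not tested.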

How the data were processed

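RNA from 3 DMSO and 3 erlotinib libraries was sequenced on the Illumina platform. Per the submitters' processing notes and the study's methods, paired-end reads were mapped to GRCh38 with Bowtie2 2.3.4, uniquely mapped reads were counted per gene with featureCounts 1.6.3, and DESeq2 1.18.1 was used for the original comparison. The authors deposited signal values, which are reads divided by 1 size factor per library (0.882 to 1.08). This division and the counted strand are not given in the sources used here, and whole reads were recovered for 100% of the values (tolerance 0.01). Replicates differed by more than counting error (a chi-square over its degrees of freedom of 4.05 to 22.9). Pairs with the second DMSO library had the highest values (22.9 and 14.4), against 7.61 for the other DMSO pair and at most 5.87 with erlotinib. Erlotinib columns are numbered 4 to 6 and the sample titles 1 to 3, so these columns were used as a group and are given in column order.

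Differences were tested with limma 3.58.1 (R 4.3.3; trend of variance on mean) on log2(signal + 1), two-sided, where the mean over all libraries reached 10, with Benjamini-Hochberg adjustment over all 14215 such genes and a threshold of 0.05. The pseudocount understates changes of low genes. Alternatives used edgeR 4.0.16 and DESeq2 1.42.0 on recovered reads. The fit was tested on simulated data. Exon lengths came from GENCODE, positions and upstream sequences from RefSeq. Transcripts of the members were aligned to 261 alternate contigs with minimap2 2.31-r1302, and 0% of any was found there. Named genes are the members, their paralogs, and from each list the 3 largest rises and 3 largest falls among called genes without overlap and the gene with the highest signal. Members and lists were chosen with earlier results of these data known.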

Additional observations from a re-analysis of the deposited data

How the results depend on the processing

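The 40 named genes gave 640 values under the other settings. Of these, 611 kept direction and side of the threshold, 19 lost the call, 1 gained it with its direction kept (CBLC, 0.40 when scaled to the total count) and 9 changed sign. The sign changes were in genes with small changes. Scaled to the total count, SHC1 was 0.011 and PTPRF 0.16, the latter then called higher (adjusted p = 0.0343, limma). With a library left out, LRIG3 ranged from -0.051 to 0.078 and PTPRF from -0.079 to 0.022. EGFR (-0.88 to -0.63), ERBB2 (1.18 to 1.39), ERBB3 (1.63 to 1.86), ERRFI1 (-1.16 to -0.95), CBL (-0.55 to -0.28) and CBLB (1.57 to 1.84) kept their calls in all 15 other fits. Over all settings, left-out libraries included, the count of genes lower with erlotinib was 3955 to 5096 and of genes higher 4323 to 6156. With exon length replaced by the longest transcript, the differences in receptor share were -21.8 percentage points for EGFR, 11.1 for ERBB2, 10.6 for ERBB3 and 0.0113 for ERBB4, against -19.1, 9.24, 9.84 and 0.0180. The cause was not tested beyond the change of length. No paired analysis was possible because the erlotinib columns carry other numbers than the sample titles. ERBB4, with 2 reads against 30, and LRIG1 had few reads, and whether depth limits their results was not tested.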

Other observations

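Genes within 50 kb of the receptors were listed by position. Beside EGFR, the long noncoding RNA ELDR, 26.8 kb away, fell from a mean signal of 113 ± 30.05 to 21.2 ± 3.22 (SD, n = 3; log2 fold change -2.33, adjusted p = 4.2e-07, limma). EGFR-AS1, which overlaps EGFR on the opposite strand by 186 exon bases, was at 181 ± 13.1 and 144 ± 33.3 (log2 fold change -0.35, adjusted p = 0.0885, limma).

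Around ERBB2, 5 of the 6 tested neighbours were higher with erlotinib, where 35.3% of all tested genes were. Among these, MIEN1 (571) and PGAP3 (144) share exon bases with ERBB2 on the opposite strand. Since the counted strand is not given, reads on those bases cannot be told from reads of ERBB2. The lymphoid factor IKZF3 was not called (log2 fold change -0.33, adjusted p = 0.61, limma). PGAP3 rose most (log2 fold change 2.13), followed by the muscle gene TCAP (1.59, from a mean signal of 14.5 to 43.0), GRB7 (1.56), the lipid transfer gene STARD3 (0.36) and MIEN1 (0.27).

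Around ERBB3 the directions were mixed. PA2G4, which encodes a protein that binds ERBB3 and which lies 1.05 kb from it, fell from 4193 ± 388 to 1422 ± 30.9 (SD, n = 3; log2 fold change -1.56, adjusted p = 1.6e-13, limma), against the rise of ERBB3. The ribosomal protein genes RPS26 (-1.28) and RPL41 (-0.47) and the membrane contact gene ESYT1 (-0.61) fell, while IKZF4 (0.87), ZC3H10 (0.82) and MYL6B (0.44) rose.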
